A study of Bos taurus with 20 samples.

Results

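The pregnancy-associated glycoprotein (PAG) region of bovine chromosome 29 was taken as every gene of the count files that starts in a set window of that chromosome, spans 6000 to 16000 bases from first to last exon, has more than 1 exon and has an exonic length of 900 to 2300 bases. The window ends at position 40000000 of build ARS-UCD1.2, and the genes found in it lie between positions 37551914 and 39962267. The criteria gave 34 genes out of 27607, and 19 other genes that start in the same window missed at least 1 of them. The longest span inside the limit was 12288 bases and the nearest one outside it was 17661 bases, which belongs to the PAG11 locus described below. The files name genes by Ensembl identifier only. Symbols are therefore those of RefSeq genes (assembly ARS-UCD2.0) lying at the same place, which 32 of the 34 genes had, and they hold as far as the assemblies share positions there. On chromosome 29, 120 of the 774 genes in the files had both ends at the same positions as a RefSeq gene, and 257 had at least 1.

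Pregnancy-associated glycoproteins form a large ruminant family of aspartic protease relatives that the outer cell layer of the conceptus, the trophoblast, secretes, and many of them are thought to have lost protease activity. An ancient group, which holds PAG2, PAG8, PAG10, PAG11 and PAG12, is made across the trophoblast. A modern group, which holds PAG1 and most others, is made mainly by binucleate trophoblast cells, and PAG1 in maternal blood is the basis of pregnancy tests in cattle.

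RNA was sequenced from 20 whole, single bovine conceptuses after depletion of ribosomal RNA. Embryos made by in vitro fertilization (IVF) had received recombinant bovine interleukin-6 (IL6, 100 ng/ml) or only its carrier from day 5 after IVF, and stayed in the treated drops until day 7.5. The groups were 6 ovoid control (3 female, 3 male), 6 ovoid IL6 (4 female, 2 male), 4 tubular control (1 female, 3 male) and 4 tubular IL6 conceptuses (2 female, 2 male), where ovoid and tubular are shapes that a conceptus takes as it elongates. Blastocysts were collected at that point for transfer, and the labels do not give the age at which conceptuses were recovered. Sample titles begin with 1 of 5 codes whose meaning is not stated. Codes c201, c5036 and c8086 hold only controls and codes c6186 and c9007 only IL6 conceptuses, so treatment and code cannot be told apart.

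Libraries held 329666 to 13940103 counts, and 3 counts correspond to 0.212 to 1.41 CPM (counts scaled to library size) in 19 of them and to 8.40 CPM in the shallowest, ovoid control 3. A pair of libraries stood apart in trophoblast markers. In ovoid control 3, 10 of 12 matched trophoblast markers were lower than in every one of the other 18 libraries, and the list summed to 529 CPM against 6239 to 12761. The blood list of 4 genes summed there to 912 CPM against 4.38 to 11.1, led by CD68 (621 CPM) and PTPRC (288 CPM). The globins HBB (0 CPM) and HBA (2.80 CPM) were inside the range of the other 18. In ovoid IL6 1, 9 of the 12 trophoblast markers were lower than in the other 18, with a keratin, KRT8, at 5111 CPM, and the whole list summed to 8923 CPM, inside the range of the other 18. There 8 hypoblast (inner yolk-sac layer) markers summed to 19301 CPM against 99.4 to 13476, of which FN1 made up 16231 CPM. SOX17, PDGFRA, FN1 and APOA1 of that list were above all of the other 18 libraries, while GATA4 (68.9 CPM) and GATA6 (117 CPM) were inside their range. In bulk tissue, fewer cells of a type and less RNA per cell cannot be told apart. A refit without this pair (14740 genes tested) was added after seeing the data. In the 7 comparisons of IL6 and shape it called 0 members and 0 of all genes. Between title codes it called 1 member and 3056 genes, and the fit with the pair called 1 member and 460 of 14875 genes. Values of the refit are given beside the results below. Of 7 binucleate cell markers, the placental lactogen CSH2 and the prolactin-related PRP2 and PRP4 were at 0 in all 20 libraries, and PRP1 (at most 0.305 CPM) and GCM1 (at most 1.88 CPM) were near it. The steroid enzymes HSD3B1 (median 47.5, range 12.4 to 131 CPM) and CYP11A1 (median 16.2, range 2.20 to 53.9 CPM) were on in the other 18 libraries, where the list summed to 20.2 to 135 CPM.

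The 34 genes belong to more than 1 family. PGA5 (pepsinogen), CYB561A3 (a cytochrome b561), SDHAF2 (an assembly factor of succinate dehydrogenase) and PPP1R32 are neighbours of the PAG copies that the criteria also take in. The other 30 lie among the aspartic protease copies, and 16 of them carry a PAG number. No member overlapped another annotated gene, 26 lay on the minus strand and 8 on the plus strand, and the gap to the nearest member ranged from 11591 to 80923 bases.

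Exon lengths set the copies into classes. The most frequent number of exons was 9, in 22 members. The inner exons 2 to 8 measured 151, 118, 119, 194, 117, 142 and 99 bases in 7 members, the most frequent set of lengths, and the PAG11 locus had the same set. A run of 117, 142 and 99 bases occurred in 18 members and in 20 genes of the files in all, none of which started outside the window. A run of 117, 145 and 99 bases occurred in 3 genes, PAG8, LOC528815 and PGA5. A second exon of 142 bases was found in exactly 3 members, PAG2, PAG12 and LOC519862.

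**Figure D1:**
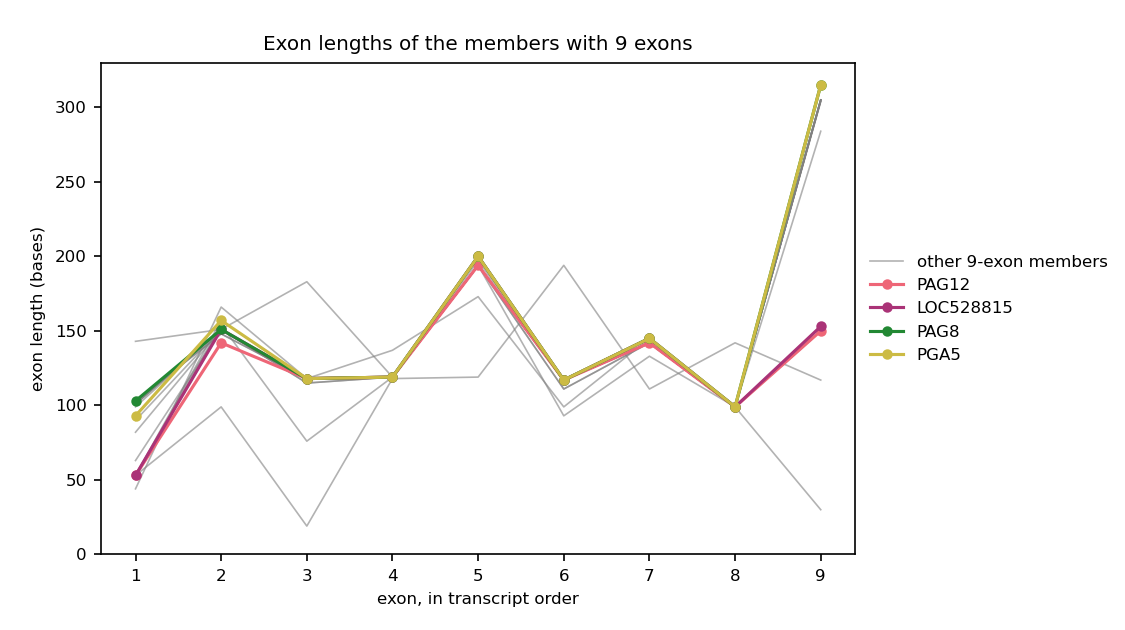
Exon length in bases (vertical axis) by exon in transcript order (horizontal axis) for the members with 9 exons, with PAG12, LOC528815, PAG8 and PGA5 coloured and 18 others in grey. The lines of PAG8 and PGA5 lie on each other in exons 3 to 9, with 200 bases in exon 5 and 145 in exon 7 against 194 and 142 in most of the others.

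A locus was called on in a library with at least 1 CPM and at least 3 counts. By this measure 5 members were broadly on (in at least 15 of the 20 libraries), 3 were on in some libraries and 26 in none. The share of all genes in each of these classes was not counted. By another measure, the count filter of the tests below, 7 of the 34 members and 14875 of the 27607 genes passed. Of the 5, PAG2 (20 libraries), PAG8 (19) and PAG12 (15) are PAG copies of the ancient group, while CYB561A3 and SDHAF2, on in all 20, are not of the family. The other 13 PAG-numbered members were never on, among them PAG10 of the ancient group and 12 others. LOC519862 and ENSBTAG00000035736 were on in 12 libraries each and LOC528815 in 2.

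The 26 members that were never on had 188 counts between them over all 20 libraries, from 0 for PAG14 to 38 for LOC521902, and at most 7 in any library. LOC281964, which RefSeq lists with the synonym PAG1, had 1 count in all, and PAG10 had 12. All 7 members with the most frequent inner exon lengths were never on, with 40 counts in all and at most 3 in a library. The PAG11 locus, outside the criteria, has the same inner exon lengths and was on in all 20 libraries with 243569 counts. The counting command in the file headers sets no option for reads with several alignments, so reads shared by near-identical copies may not have been counted. The low values of such copies are therefore uncertain. Each library had 3 to 8 members on.

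PAG2 held 60.6% of the 81193 counts of the 34 members. The PAG11 locus, ENSBTAG00000022759 (chr29:39438824-39456485, minus strand), is outside the criteria by its span alone and is given here because of its level, after its values were seen. It had 243569 counts, and per kilobase of exonic length (RPKM) it was above every PAG copy among the 34 members in 20 of 20 libraries.

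**Figure D2:**
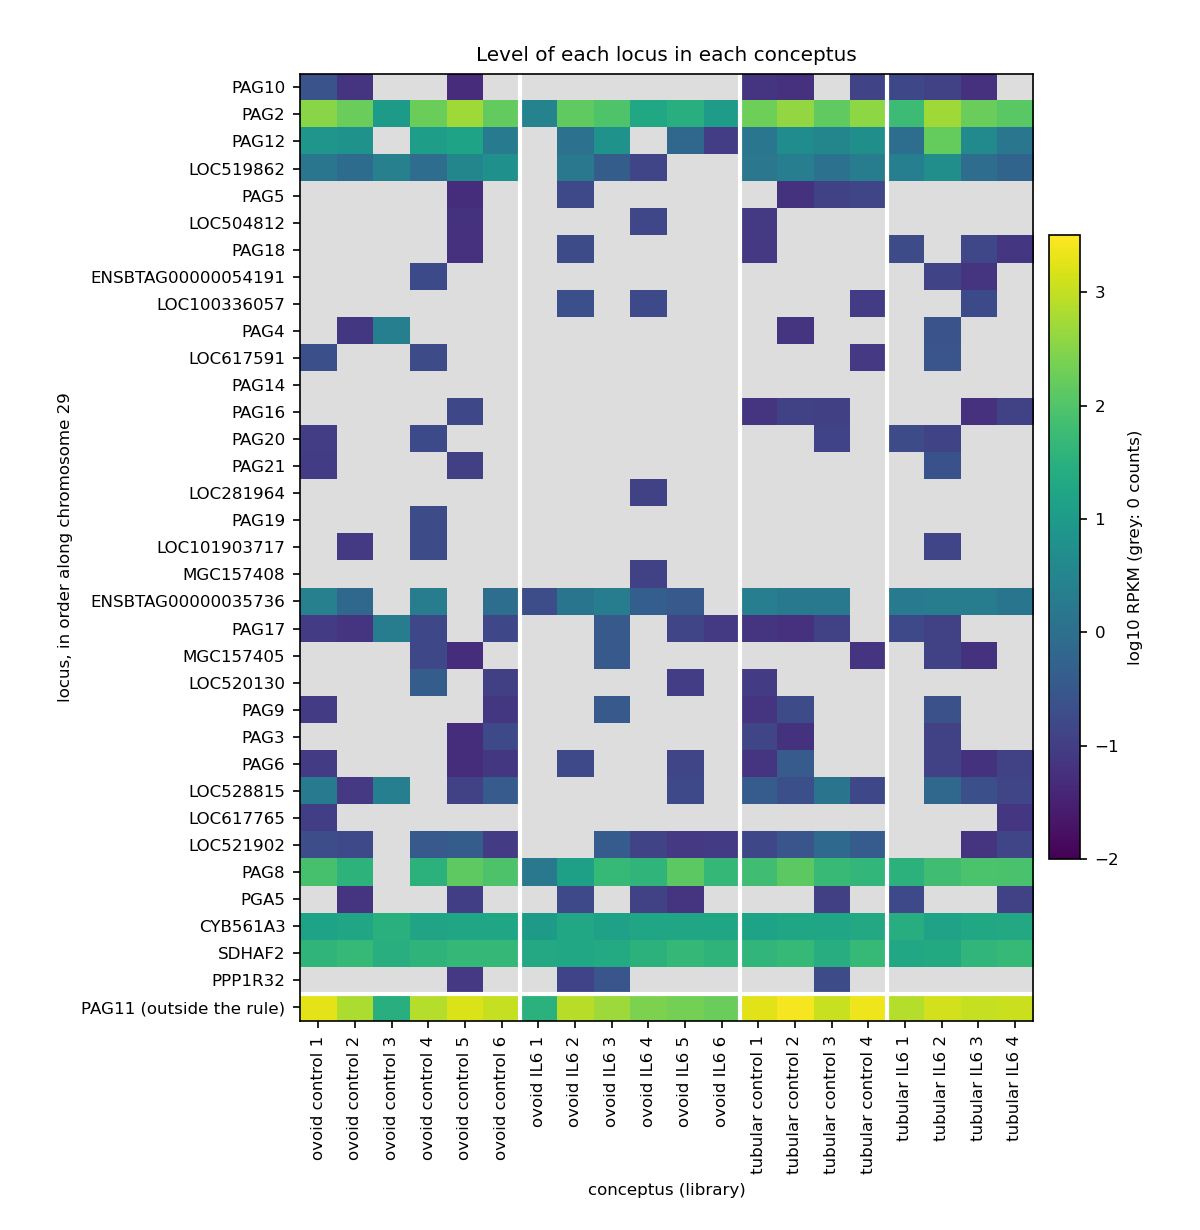
Level of the 34 members (rows in order along the chromosome) and of the PAG11 locus (bottom row) in the 20 conceptuses (columns by group), as log10 RPKM in colour and grey for 0 counts. PAG2, PAG8, CYB561A3, SDHAF2 and PAG11 form nearly unbroken bands, PAG12, LOC519862 and ENSBTAG00000035736 broken ones, LOC528815 passes the threshold in 2 libraries, and the other 26 rows hold at most 7 counts in any library.

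PAG2 (ENSBTAG00000033096, chr29:37571936-37581505, minus strand), a secreted trophoblast glycoprotein of the ancient group, averaged 183 RPKM. This was the highest mean among the 34 members, below that of the PAG11 locus outside the criteria (1007 RPKM). In ovoid controls its lowest, median and highest values were 13.99, 253 and 752 CPM, the lowest being ovoid control 3. In ovoid IL6 conceptuses they were 4.16, 33.5 and 201.5 CPM, the lowest being ovoid IL6 1. The 4 tubular controls had 277, 565, 204 and 518 CPM and the 4 tubular IL6 conceptuses 81.7, 757, 251 and 175 CPM. Apart from ovoid control 3, every ovoid control (lowest 216 CPM) was above every ovoid IL6 conceptus (highest 201.5 CPM), whereas the tubular groups overlapped. The share of all genes that separate in this way was not counted.

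PAG8 (ENSBTAG00000019226, chr29:39726286-39736545, plus strand), also of the ancient group, averaged 60.8 RPKM. Its lowest, median and highest values were 0, 78.7 and 187 CPM in ovoid controls and 2.19, 58.3 and 176 CPM in ovoid IL6 conceptuses. The tubular controls had 88.0, 177, 71.5 and 59.8 CPM and the tubular IL6 conceptuses 45.8, 90.2, 121 and 114 CPM. All 4 groups overlapped. The 0 in ovoid control 3 allows a level of up to 8.40 CPM at that library's depth, counting error only.

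PAG12 (ENSBTAG00000019173, chr29:37655999-37666176, plus strand), the third ancient copy that was broadly on among the members, averaged 11.5 RPKM, and 1 conceptus set that mean. Its lowest, median and highest values were 0, 7.999 and 18.0 CPM in ovoid controls and 0, 0.441 and 7.53 CPM in ovoid IL6 conceptuses. The tubular controls had 1.60, 5.36, 3.81 and 6.17 CPM. Tubular IL6 2 had 177 CPM (1119 counts) while the other tubular IL6 conceptuses had 1.10, 4.82 and 1.67 CPM. The PAG12 value of tubular IL6 2 was 58.4 times the median of the 20 libraries. PAG2 was also highest in that conceptus, at 757 CPM and 3.60 times its median, but close to the 752 CPM of ovoid control 5.

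LOC519862 (ENSBTAG00000024611, chr29:37693387-37703026, minus strand) shares the second exon of 142 bases with PAG2 and PAG12. It had 0.956, 2.18 and 6.52 CPM as lowest, median and highest in ovoid controls and 0, 0.0795 and 1.76 CPM in ovoid IL6 conceptuses. The tubular controls had 1.69, 2.51, 1.22 and 2.30 CPM and the tubular IL6 conceptuses 2.64, 5.84, 1.014 and 0.667 CPM. A single ovoid IL6 conceptus reached the range of the ovoid controls, and 3 of the 6 had no count.

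ENSBTAG00000035736 (chr29:38929194-38937414, minus strand), which has no RefSeq symbol at its place, had few counts (202 in all) but an uneven pattern. Ovoid control 5, the deepest library, and tubular control 4 with 10818029 counts had 0 of its counts, which allows up to 0.212 and 0.276 CPM. The other tubular controls had 2.54, 1.84 and 1.83 CPM and the tubular IL6 conceptuses 1.98, 2.37, 2.28 and 1.502 CPM. Its lowest, median and highest values were 0, 0.917 and 2.77 CPM in ovoid controls and 0, 0.430 and 2.35 CPM in ovoid IL6 conceptuses. Of the conceptuses at 0, ovoid control 5 carries c5036, tubular control 4 c8086, ovoid IL6 6 c9007 and ovoid control 3 c201. The 0 in ovoid control 3 allows up to 8.40 CPM, above the highest value of this locus, and does not show that the locus was off. In ovoid IL6 6 the 0 allows up to 0.341 CPM. The part of title code in these values was not tested.

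LOC528815 (ENSBTAG00000013214, chr29:39530075-39538876, minus strand), which shares its run of 117, 145 and 99 bases with PAG8, was on in ovoid control 1 with 17 counts (2.05 CPM) and tubular control 3 with 10 counts (1.52 CPM). It had 0 to 5 counts in the other 18 libraries.

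The PAG11 locus had a lowest, median and highest value of 36.4, 1161 and 2350 CPM in ovoid controls and 40.9, 307 and 1054 CPM in ovoid IL6 conceptuses. The tubular controls had 2283, 3454, 1418 and 2924 CPM and the tubular IL6 conceptuses 990, 1691, 1315 and 1468 CPM. The ovoid control 3 and ovoid IL6 1 libraries were lowest in their groups, as they were for PAG2 and PAG8.

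**Figure D3:**
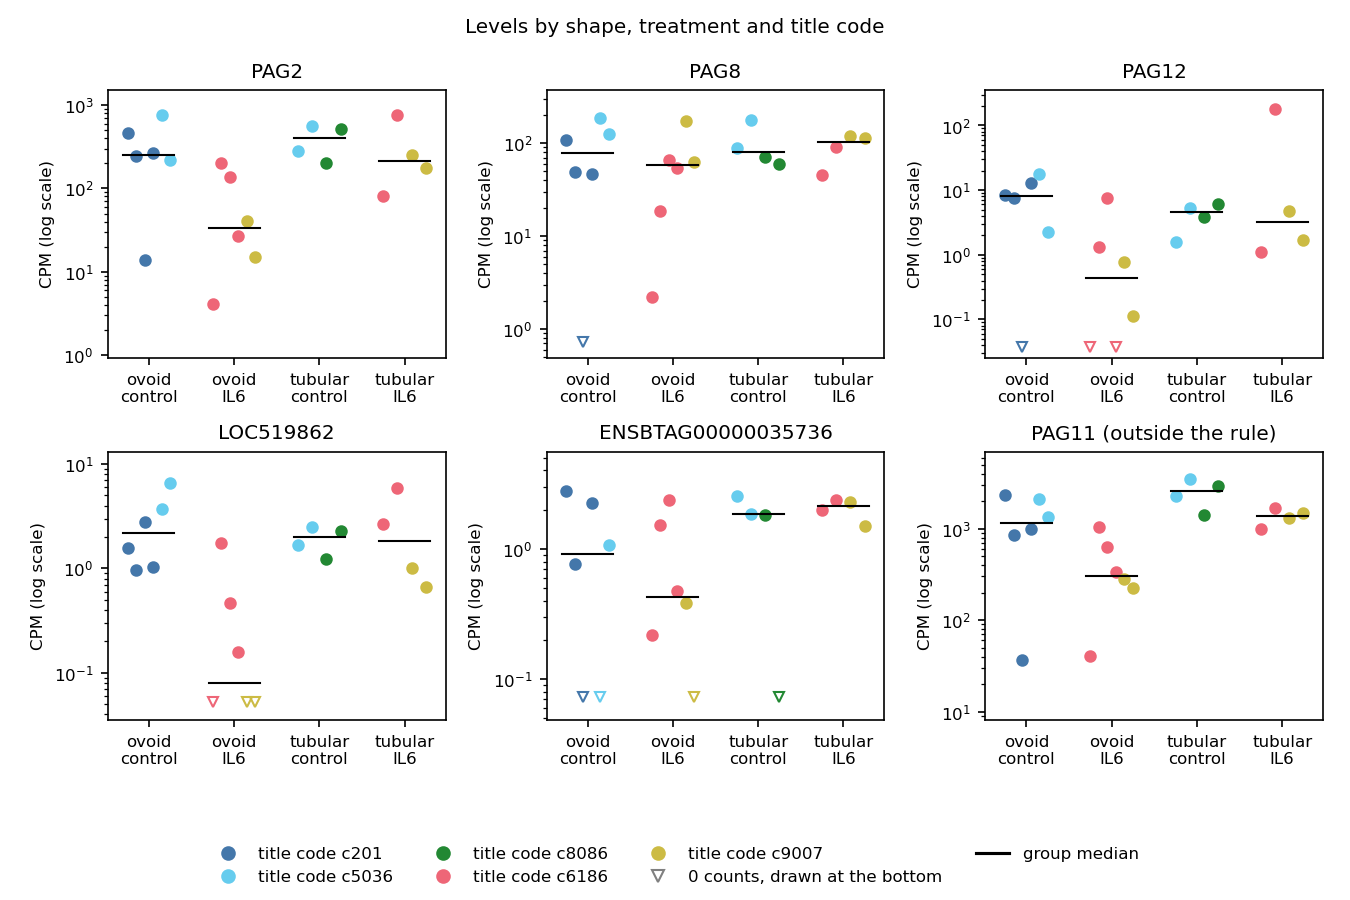
CPM (log scale) of PAG2, PAG8, PAG12, LOC519862, ENSBTAG00000035736 and the PAG11 locus in each conceptus by group, coloured by title code, with lines at group medians and open triangles for 0 counts. PAG12 in tubular IL6 2 stands at 177 CPM, above the 18.0 CPM of the next conceptus, and the 6 ovoid IL6 conceptuses have the lowest median of the 4 groups in all 6 panels.

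The order of PAG2 and PAG8 was not the same in all conceptuses. Per kilobase, PAG2 was above PAG8 in 17 libraries and below it in 3, all of them ovoid IL6 conceptuses. Ovoid IL6 4 had 18.7 RPKM for PAG2 and 39.9 for PAG8, ovoid IL6 5 had 28.4 and 128, and ovoid IL6 6 had 10.6 and 45.4. Ovoid IL6 5 and 6 are the only ovoid conceptuses of code c9007, and ovoid IL6 4 carries c6186. The other 3 ovoid IL6 conceptuses, all of c6186, had PAG2 above PAG8. Ovoid IL6 4, 5 and 6 are female, as is ovoid IL6 3, while ovoid IL6 1 and 2 are male. The part of title code or sex in this order was not tested.

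**Figure D4:**
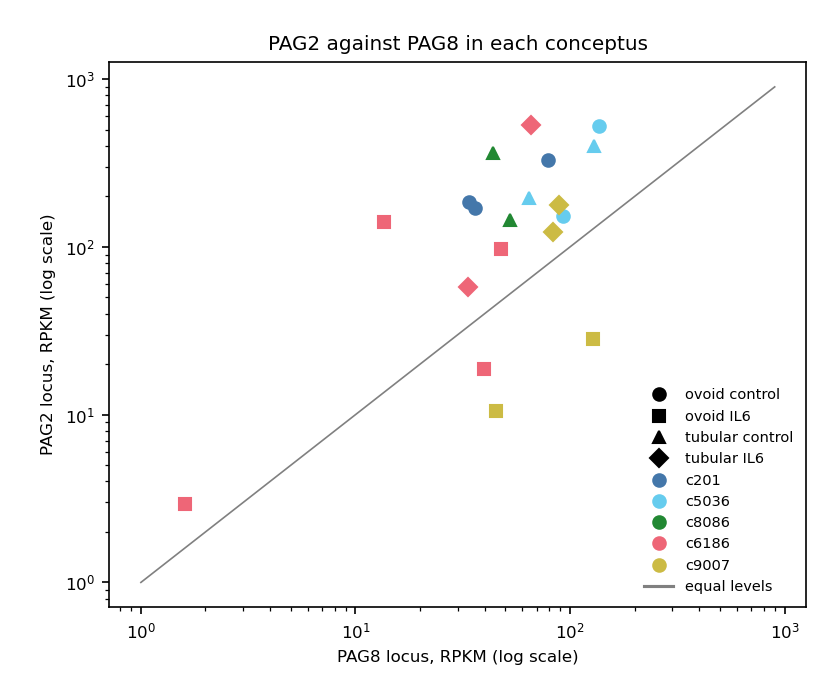
RPKM of PAG2 (vertical, log scale) against PAG8 (horizontal, log scale) in the 19 conceptuses with a PAG8 count, with shapes for the groups, colours for the title codes and a line of equal levels. The 3 points under the line are ovoid IL6 conceptuses with 10.6 to 28.4 RPKM of PAG2.

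Across the 20 conceptuses, log2 CPM (prior count 2) of PAG2 and the PAG11 locus had a Pearson r of 0.933 and a Spearman rho of 0.868, each with a permutation p of 1e-05, the smallest that 100000 permutations can give (adjusted over 10 pairs of loci, 5e-05). Without the 2 libraries farthest from the median of PAG2, ovoid control 3 and ovoid IL6 1, r was 0.913, and it was 0.960 within controls and 0.946 within IL6 conceptuses. PAG2 and PAG12 had r = 0.861 and rho = 0.854 with the same permutation p, and r was 0.830 without those 2 libraries. PAG2 and PAG8 had r = 0.645 (permutation p = 0.00431, adjusted 0.00718) and rho = 0.532 (permutation p = 0.0175, adjusted 0.0249), and r fell to 0.243 without the same 2 libraries, so this relation rests on them. Within controls, which hold ovoid control 3, r was 0.943, and within IL6 conceptuses, which hold ovoid IL6 1, it was 0.574. Values of 1 library share its depth and its mix of cells, and the part of either in these correlations was not tested.

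The question of the design for these loci is whether IL6 exposure of the embryo or the shape of the conceptus goes with their levels. Only 7 of the 34 members had enough counts to be tested, PAG2, PAG12, PAG8, LOC519862, ENSBTAG00000035736, CYB561A3 and SDHAF2. The fit was edgeR's quasi-likelihood test over all 14875 genes that passed the filter, with 4 group terms and sex, and a gene was called at a Benjamini-Hochberg adjusted p under 0.05. The tested loci varied widely between conceptuses. Their median biological coefficient of variation (the square root of the fitted dispersion) was 0.859 against 0.358 over all tested genes, from 0.238 for CYB561A3 to 1.24 for PAG12.

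In ovoid conceptuses, IL6 against control, PAG2, PAG12 and LOC519862 had lower fitted levels, and none passed the adjusted threshold. The log2 fold change of PAG2 (ENSBTAG00000033096) was -2.22 ± 0.82 (SE, adjusted p 0.453), LOC519862 (ENSBTAG00000024611) -3.0 ± 0.91 (adjusted p 0.394) and PAG12 (ENSBTAG00000019173) -3.33 ± 1.22 (adjusted p 0.450). PAG8 had -0.81 ± 0.76 (adjusted p 0.850). edgeR called 0 of the 7 members, with 0% of all tested genes called, and DESeq2 called 0 of the 7 with 0.589% of genes called. At an unadjusted p under 0.05, 3 of the 7 stood out, where 8.34% of all tested genes did. DESeq2 gave 3 as well, beside 1489 of 14875 genes. The median log2 fold change was -0.84 over the 7 members and 0.02 over all tested genes. Without ovoid control 3 and ovoid IL6 1, PAG2 had -2.23 ± 0.71 (adjusted p 0.281) and LOC519862 -2.74 ± 0.96 (adjusted p 0.284). PAG12 had -3.58 ± 1.36 (adjusted p 0.300) and PAG8 (ENSBTAG00000019226) -0.71 ± 0.56 (adjusted p 0.587) there. In that refit, 3 of the 7 again had an unadjusted p under 0.05, beside 1975 of 14740 genes. With single conceptuses left out, the fold change ran from -3.42 to -1.70 for PAG2, from -5.16 to -2.51 for LOC519862, from -4.55 to -2.98 for PAG12 and from -1.37 to -0.39 for PAG8. The PAG11 locus (ENSBTAG00000022759) had -1.51 ± 0.66 (adjusted p 0.551), and -1.51 ± 0.39 (adjusted p 0.280) without that pair.

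In tubular conceptuses, IL6 against control, no member was called by edgeR or DESeq2. None had an unadjusted p under 0.05 by either tool, beside 2.51% of all tested genes by edgeR and 629 of 14875 by DESeq2. Here edgeR called 0% of all tested genes. PAG12 had 1.94 ± 1.51 (log2, SE, adjusted p above 0.999), and this turned to -1.08 without tubular IL6 2. It was 1.80 without ovoid control 3 and ovoid IL6 1. Again no member had an unadjusted p under 0.05 there, beside 1156 of 14740 genes. PAG2 had -0.30 ± 1.06 and PAG8 -0.32 ± 0.86. The median log2 fold change was 0.19 over the 7 members and 0.00 over all tested genes. That value of 0.19 is the one of CYB561A3, a neighbour and not a PAG copy.

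Averaged over both shapes, the IL6 comparison called 0 members by edgeR (0% of all tested genes) and by DESeq2 (0.98% of genes). PAG2 had the smallest edgeR p with -1.26 ± 0.66 (adjusted p 0.511), and LOC519862 had -1.19 ± 0.66 (adjusted p 0.533). No member had an unadjusted p under 0.05 by edgeR, beside 10.7% of all tested genes. DESeq2 gave 1 member, beside 2065 of 14875 genes. By edgeR, the count of members with such a p was 4 of 8 without tubular IL6 2, beside 1271 of 15243 genes. LOC528815 also passed the filter there. Without ovoid control 3 and ovoid IL6 1 the count was 1 of 7, beside 3237 of 14740 genes. With title code as a random block (limma-voom) it was 3 of 7, beside 617 of 14875 genes. Each of these fits called 0 members and 0 of all genes. The PAG11 locus had -1.10 ± 0.54 (adjusted p 0.473).

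Between shapes, the control conceptuses gave 0 called members by either tool, with 0% of all tested genes called. At an unadjusted p under 0.05 there were 0 members by either, where edgeR had 1.64% of all tested genes and DESeq2 402 of 14875. PAG2 had 0.25 ± 0.91 (tubular minus ovoid, log2), PAG8 0.32 ± 0.77, PAG12 -0.43 ± 1.15 and LOC519862 -0.65 ± 0.85. Without ovoid control 3 and ovoid IL6 1, LOC519862 had -0.64. Again no member had an unadjusted p under 0.05 there, beside 204 of 14740 genes. These intervals are wide, and the data do not show that the shapes had equal levels.

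Within IL6 conceptuses, tubular against ovoid, fitted levels were higher by 4.83 ± 1.30 for PAG12, 2.98 ± 0.97 for LOC519862 and 2.17 ± 0.89 for PAG2 (log2, SE). Their adjusted p values were all above 0.999 by edgeR, which called 0% of all tested genes, and DESeq2 also called 0 members. These 3 of the 7 had an unadjusted p under 0.05, beside 2.8% of all tested genes (DESeq2, 3, beside 651 of 14875 genes). Without tubular IL6 2, PAG12 had 1.22, LOC519862 1.84 and PAG2 1.27. There 0 of 8 members had an unadjusted p under 0.05, beside 538 of 15243 genes. Compared within title code, PAG12 had 4.46, LOC519862 3.38 and PAG2 2.52, each with an adjusted p of 0.981, in a fit added after seeing the data. Without ovoid control 3 and ovoid IL6 1, PAG12 (ENSBTAG00000019173) had 4.83 ± 1.36, LOC519862 (ENSBTAG00000024611) 2.69 ± 0.998 and PAG2 (ENSBTAG00000033096) 1.92 ± 0.75. PAG8 had 0.81 ± 0.80. The median log2 fold change was 1.55 over the 7 members and -0.03 over all tested genes.

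Averaged over both treatments, tubular against ovoid, 0 members were called by edgeR (0% of all tested genes) or DESeq2. PAG12 alone had an unadjusted edgeR p under 0.05, with 2.20 ± 0.82 (adjusted p 0.914), where 4.32% of all tested genes had one. DESeq2 gave 2 members, beside 981 of 14875 genes. Without tubular IL6 2, PAG12 had 0.27, and by edgeR 0 of 8 members had such a p, beside 713 of 15243 genes. Without ovoid control 3 and ovoid IL6 1, PAG12 had 2.13. There 1 of the 7 members had such a p, beside 612 of 14740 genes.

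The difference of the IL6 effect between shapes was tested as its own term. It called 0 members with edgeR (0% of all tested genes) and 0 with DESeq2. PAG12 had 5.27 ± 1.80 (tubular minus ovoid, log2) and LOC519862 3.62 ± 1.32, both with an adjusted p of 1, and both tools gave 2 of the 7 at an unadjusted p under 0.05, beside 0.632% of all tested genes by edgeR. By DESeq2, 142 of 14875 genes had such a p. PAG12 had 1.90 without tubular IL6 2, and by edgeR 1 of 8 members had such a p, beside 126 of 15243 genes. Without ovoid control 3 and ovoid IL6 1, PAG12 had 5.39 and LOC519862 3.34. There 2 of the 7 had such a p, beside 106 of 14740 genes. PAG2 had 1.92 ± 1.33.

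**Figure D5:**
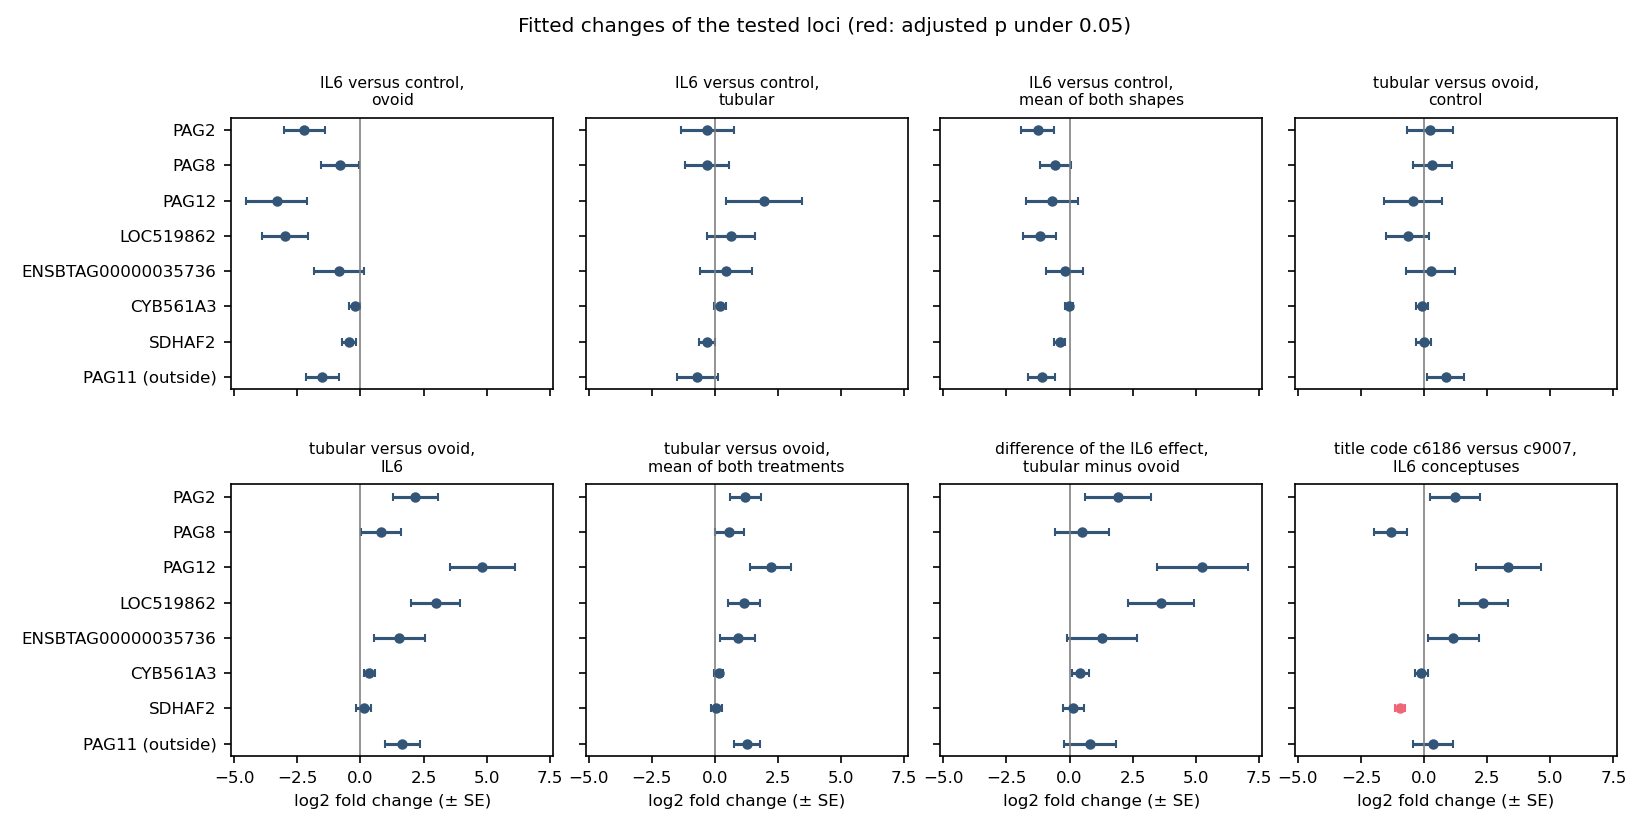
Log2 fold change ± SE of the 7 tested members and of the PAG11 locus in the 8 comparisons, with an adjusted p under 0.05 in red. SDHAF2 between title codes, at -0.96, is the single red point, and the error bars of PAG12 are the widest in every panel.

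Codes c6186 and c9007 both hold ovoid and tubular IL6 conceptuses, which allowed a comparison of conceptuses with the same treatment by title code, adjusted for shape and sex. The single member called was SDHAF2 (ENSBTAG00000015266), a neighbour and not a PAG copy. It had 23.8, 25.9 and 41.0 CPM as lowest, median and highest in the 6 c6186 conceptuses. The 4 c9007 conceptuses had 57.5, 45.5, 52.0 and 59.5 CPM, without overlap. The share of all genes without overlap between these codes was not counted. The fitted log2 fold change was -0.96 ± 0.20 (adjusted p 0.0268 by edgeR, 4.56e-04 by DESeq2), in a comparison that called 3.09% of all tested genes with edgeR and 14.4% with DESeq2. The call was lost without each of ovoid IL6 3, 5 and 6 and of tubular IL6 1, 2, 3 and 4. There the edgeR adjusted p values were 0.0522 to 0.126 and the log2 fold changes -1.05 to -0.93. Those refits called 2 to 209 of all tested genes, against 460 with all conceptuses. Refits without another single conceptus kept the call and called 153 to 1964 genes.

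No PAG copy was called between these codes. PAG12 had 3.34 ± 1.30 (c6186 minus c9007, adjusted p 0.144), LOC519862 2.34 ± 0.96 (adjusted p 0.164) and PAG2 1.21 ± 0.99 (adjusted p 0.499). PAG8 pointed the other way, with 2.19, 50.2 and 90.2 CPM as lowest, median and highest in c6186 and 176, 62.1, 121 and 114 CPM in c9007, and a log2 fold change of -1.33 ± 0.65 (adjusted p 0.241). Without ovoid control 3 and ovoid IL6 1, PAG8 (ENSBTAG00000019226) had -1.12 ± 0.38 (adjusted p 0.0511). There 4 of the 7 members and 5331 of the 14740 genes had an unadjusted p under 0.05, and edgeR called 3056 genes. With all conceptuses, 3 of the 7 members had such a p by either tool, beside 22.2% of all tested genes by edgeR. By DESeq2, 4170 of 14875 genes had one. PAG12 had 0.58 without tubular IL6 2.

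Related genes were read for the same comparisons. Of 8 other aspartic proteases listed, 7 were matched and 3 tested, and edgeR called 0 of them in the 8 comparisons, with at most 2 at an unadjusted p under 0.05. DESeq2 called 1, BACE2 (ENSBTAG00000000394), a membrane aspartic protease, in the ovoid IL6 comparison (2.28 ± 0.60, adjusted p 0.0313, and 0.371 by edgeR) and between title codes (adjusted p 0.00937, and 0.0869 by edgeR). Of 6 transcription factors known to act on these genes (ETS2, DLX3, GCM1, GATA2, GATA3 and TFAP2C), 5 were tested and none was called by either tool. Between title codes, 1 of the 5 had an unadjusted p under 0.05 by each tool, and there was none in the other 7 comparisons. The 6 genes summed to 171 CPM in ovoid control 3 and 96.5 CPM in ovoid IL6 1. In the other 18 libraries they summed to 556 to 1442 CPM. All but GCM1 were also in the trophoblast list that set these 2 libraries apart, so the low sums are not a separate observation. ETS2 made up 148 CPM of the sum in ovoid control 3, inside the 76.1 to 319 CPM of the other 18. These 2 libraries also had the lowest PAG11 values. The part of these transcription factors in the levels of the PAG loci was not tested.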

How the data were processed

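Whole-conceptus RNA was sequenced as paired reads of 150 bases. The authors deposited 1 table of raw gene counts per conceptus, made with featureCounts 2.0.1 per the file headers, on Ensembl release 105 models of ARS-UCD1.2. The submitters' processing notes also list HISAT2, SAMtools and Picard. From these deposited counts, CPM with TMM factors, RPKM and tests were computed with edgeR 4.0.16 (filterByExpr by group, robust fit, 4 groups and sex), with DESeq2 1.42.0 and limma 3.58.1 as alternatives, after the code was tested on simulated data. Each library is 1 individual conceptus. The p values treat conceptuses as independent, although several share a title code. Members and lists were chosen with earlier results of these data known. Members named with values were the 8 with the highest mean RPKM, those called, the 3 with the largest ratio of highest to median CPM among those with a mean of at least 1 CPM, and the smallest p of each comparison without a call. Marker and related lists were matched to the files by place (at least 50% overlap both ways with a RefSeq gene of ARS-UCD2.0), a choice made after seeing that the files hold no symbols. The code comparison used 5 code terms, shape and sex. Alternatives were RLE factors, other filters, no sex term, a random or fixed code effect and leaving out conceptuses or codes. Sequences were not used here.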

Additional observations from a re-analysis of the deposited data

Results flagged for a closer look

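A total of 6 values lay far from the rest of their group in log2 CPM by Dixon's criterion, out of 36 groups of values examined, and chance flags about 1 in 20 groups. Ovoid control 3 accounts for 4 of the 6. It was lowest of 6 for PAG2 with 13.99 CPM (others 216 to 752), for PAG8 with 0 CPM (others 46.2 to 187) and for the PAG11 locus with 36.4 CPM (others 847 to 2350), and highest for CYB561A3 with 58.8 CPM (others 29.9 to 34.6). Tubular control 4 was lowest of 4 for ENSBTAG00000035736 with 0 CPM (others 1.83 to 2.54). Ovoid IL6 5 was highest of 6 for LOC528815 with 0.192 CPM, which is 2 counts where the others had 0.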

How the results depend on the processing

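Among values of named loci, 591 under alternatives kept their direction and side of the threshold, 5 changed direction and 8, all SDHAF2 between title codes, lost their call. Without title code c6186, PAG8 had a log2 fold change of 0.52 in the ovoid IL6 comparison and -0.13 between shapes within IL6, and PAG12 had -0.77 in the tubular IL6 comparison. PAG12 had -1.08 there without tubular IL6 2 (-1.08 to 2.77 over single conceptuses left out). LOC519862 had 0.46 between shapes in controls without title code c5036. The number of members called between title codes was 1 and ranged from 0 to 1 over single conceptuses left out. Calls over all genes ranged there from 2 to 1964. Without c5036, 0 members and 2 of 15189 genes were called. Without title code c9007, 1 member was called in the mean IL6 comparison, SDHAF2, where 344 of 15174 genes were called. Asking also for the most frequent number of exons left 22 members. The other comparisons had 0 called members under every alternative run. Leaving out single conceptuses gave 4 to 5 members broadly on, 3 to 4 in some libraries and 26 in none. No paired analysis was possible because no number in the labels pairs conceptuses across groups. Shape was compared within title code instead, in a fit added after seeing the data. It called 0 members and 0 of all genes in the 4 comparisons of shape. At an unadjusted p under 0.05 there were 0 to 3 of 7 members, beside 39 to 395 of 14875 genes. A random title code effect (limma-voom, correlation 0.148) called no member in the 7 comparisons it was run for, and it was not run between title codes, where the block is the code itself. Depth limits the reading of ovoid control 3, where 3 counts are 8.40 CPM, and of loci under 1 CPM in all libraries. Whether reads shared by near-identical copies were counted was not tested. The causes of these changes were not tested.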
